A study of Mus musculus with 4 samples.

Results

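Cadherins hold neighbouring lens cells together, and catenins tie their tails to the actin cytoskeleton. Tight junction proteins seal the space between epithelial cells, and integrins fasten cells to the laminin-rich capsule that surrounds the lens. In the mouse lens, E-cadherin (Cdh1) is known as the cadherin of the anterior epithelium, whereas N-cadherin (Cdh2) is carried by both epithelium and fiber cells, so the cadherin type changes as epithelial cells differentiate into fibers.

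The genes described here are 10 members of these systems: the cadherins Cdh1 and Cdh2, the catenins Ctnna1, Ctnnb1 and Ctnnd1, the immunoglobulin-family adhesion molecule Cadm1, the tight junction genes Cldn1 and Cgn, and the integrin subunits Itga6 and Itgb1. They were taken by gene symbol from the deposited tables, keeping for each symbol the locus of highest mean level, and are 10 of the 11264 genes that could be compared across all libraries. Every member passed the filter of 1 FPKM (fragments scaled to transcript length and library depth) in at least 1 library, and none had a failed estimate.

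RNA sequencing was run on lenses of C57BL/6 mice at 2 and 4 months of age. Animals of both genotypes carried a transgene for alpha A crystallin, a chaperone that is a main protein of the lens: in N101D (CRYAAN101D) mice the protein bears a change that imitates deamidation, and in WT (CRYAAWT) mice it is unmodified. Each genotype gave 1 library at each age, so there were 4 libraries, 1 per group, and a difference between any 2 of them has no replicate check. No library came from a mouse without a transgene, and the labels used here do not give the promoter of the transgenes, the number or sex of the mice, or how the lenses were dissected.

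By the steps between low values, depth at 2 months was 24.2 M fragments in N101D against 49.3 M in WT, and at 4 months 52.6 M against 34.6 M. The lens fiber markers were strongly present in all of them, with 8 measured genes summing to between 93100 and 164000 FPKM. The N101D library of 2 months stood apart from the other 3. All 9 markers of pigmented ocular tissue, such as iris and retinal pigment epithelium, were lower in it than in WT, with a sum of 20.8 against 361 FPKM, while at 4 months the sums were 292 and 257. It also held Xist at 12.9 FPKM against 0.0744 in WT of the same age and the Y-linked gene Eif2s3y at 0.122 FPKM, against 7.32 to 11.6 in the other 3 libraries. At 2 months, genotype therefore cannot be told apart from sex or from the amount of pigmented tissue, and neither can age within N101D. The level of Cryaa, 67400 and 68200 FPKM in N101D and WT at 2 months and 44700 and 41900 at 4 months, does not check the labels, since both transgenes encode the same protein but for the altered residue.

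The promoters of the 2 members whose levels varied most, the tight junction genes Cldn1 and Cgn, are shown here because the results turn on them. Both are RefSeq sequences of GRCm38.p6 that run from 250 bases before the start of the gene to 50 after it, on the minus strand, at chr16:26371790-26372089 for Cldn1 and chr3:94786433-94786732 for Cgn. Capitals mark the GC box, GGGCGG, on either strand.
Cldn1: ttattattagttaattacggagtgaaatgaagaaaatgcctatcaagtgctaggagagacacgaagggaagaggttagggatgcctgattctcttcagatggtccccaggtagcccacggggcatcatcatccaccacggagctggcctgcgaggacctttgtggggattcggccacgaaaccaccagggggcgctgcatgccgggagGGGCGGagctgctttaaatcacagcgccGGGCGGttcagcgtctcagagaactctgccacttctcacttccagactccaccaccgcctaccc
Cgn: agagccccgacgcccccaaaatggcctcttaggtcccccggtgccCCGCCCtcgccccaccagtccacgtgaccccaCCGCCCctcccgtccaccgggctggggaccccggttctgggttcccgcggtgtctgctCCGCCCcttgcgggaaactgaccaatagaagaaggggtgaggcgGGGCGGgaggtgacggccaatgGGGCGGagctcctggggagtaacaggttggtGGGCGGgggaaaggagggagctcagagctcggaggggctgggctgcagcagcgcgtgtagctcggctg

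The Cldn1 window holds 2 GC boxes and has a GC content of 56.0%. The Cgn window holds 6 and has a GC content of 70.3%, against a median of 53.0% over all 32544 promoters of the table. A GC box occurs in 35.9% of them. Neither window holds CACCTG, the E-box letters read by the Snail and Zeb repressors of cadherin and claudin genes, on either strand, and 20.3% of all promoters hold it. These letter matches describe the 2 windows only. The table has entries for 5 of the 10 members.

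The 10 genes covered a wide range of levels, and most differed by less than 2-fold between the libraries. By mean FPKM over the 4 libraries the order was Ctnnb1 (128), Cadm1 (74.9), Itgb1 (48.2), Itga6 (37.8), Cdh2 (33.7), Ctnna1 (32.9), Ctnnd1 (16.1), Cdh1 (11.2), Cgn (6.20) and Cldn1 (3.37). Ctnnb1 stood above Cadm1 in every library and Cadm1 above Itgb1, with no overlap between their ranges, and a gap also separated Ctnna1 from Ctnnd1. All other neighbours in this order overlapped in their ranges. The highest library exceeded the lowest by less than 2-fold for 8 members, from 1.18-fold in Itga6 to 1.87-fold in Cdh1, but by 4.62-fold for Cgn and 14.9-fold for Cldn1.

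**Figure D1:**
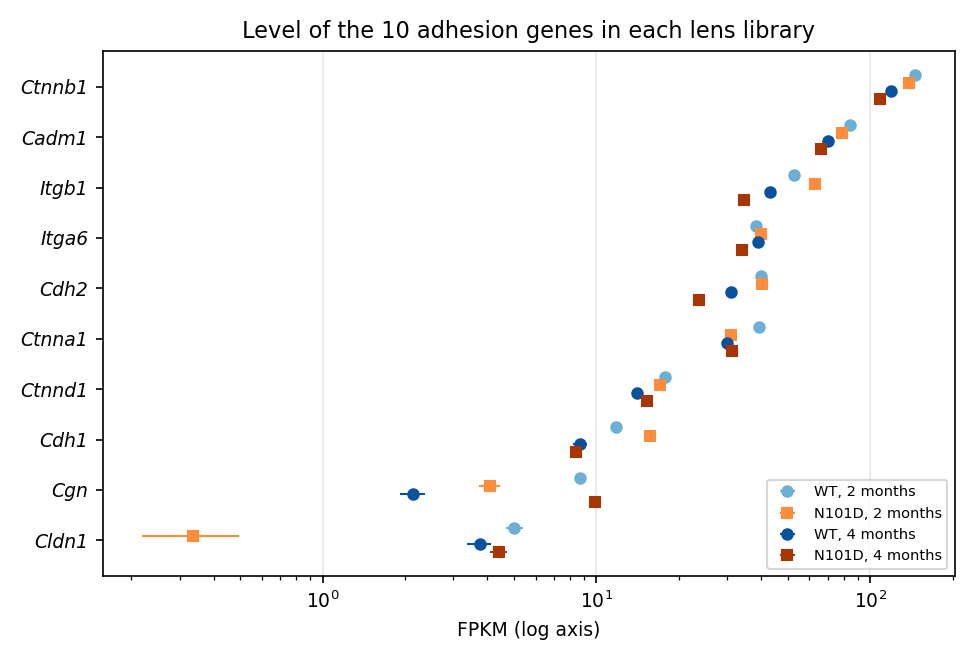
Levels of the 10 adhesion genes in each of the 4 lens libraries, in FPKM on a log axis, with 1 point per library. Any bar on a point covers counting error only, since each group had 1 library and spread between replicates cannot be shown. Cldn1 sits far lower in the N101D library of 2 months (0.336 FPKM) than in the other 3 (3.74 to 5.01 FPKM), and Cgn is lowest in the WT library of 4 months (2.14 FPKM).

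Among the cadherins, Cdh1, which marks the epithelium, measured 15.7 FPKM in N101D against 11.8 in WT at 2 months, and 8.40 against 8.71 at 4 months. Both libraries of 2 months lay above both of 4 months. The genotype difference on the log2(FPKM + 1) scale was 0.39 at 2 months and -0.05 at 4 months. The first became -0.06 once libraries were brought to equal totals without the crystallins. The median of all genes at 2 months then went from -0.09 to -0.46. The kept locus of Cdh1 is XLOC_038265, chr8:109127106-109198721 on mm9 as listed.

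Cdh2, the cadherin shared by epithelium and fibers (XLOC_018611), measured 40.3 FPKM in N101D against 40.0 in WT at 2 months, and 23.7 against 31.0 at 4 months. Between genotypes the log2 difference was 0.01 at 2 months and -0.37 at 4 months, when N101D was the lower, at 0.765 of the WT level (95% interval 0.737 to 0.795). With equal totals without the crystallins the differences were -0.45 and -0.40, so the value of 2 months rests on the scaling. The median of all genes at 2 months was then -0.46. The intervals given here come from approximate read numbers and cover counting error only. Cdh2 exceeded Cdh1 in every library, by 2.56-fold and 3.39-fold in N101D and WT at 2 months and by 2.82-fold and 3.55-fold at 4 months. At both ages the N101D library thus had the smaller share of the summed cadherin FPKM from Cdh2, 71.9% against 77.2% at 2 months and 73.8% against 78.0% at 4 months. The ratio within a library is not touched by the scaling between libraries, but it was lower when all loci of each symbol were summed, at 1.93 and 2.73 at 2 months and 1.77 and 2.69 at 4 months.

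The 3 catenins varied by at most 1.34-fold between the libraries. Ctnnb1, or beta-catenin, which binds the cadherin tail and also acts in Wnt signalling, measured 139 FPKM in N101D against 146 in WT at 2 months and 109 and 119 at 4 months. N101D was slightly lower at both ages, by less than 2-fold, with log2 differences of -0.07 and -0.12 (-0.09 and -0.01 with quantile normalization). With equal totals without the crystallins they were -0.54 and -0.15. Ctnna1, alpha-E-catenin, which couples this complex to actin, measured 31.1 and 39.2 FPKM in N101D and WT at 2 months and 31.4 and 30.1 at 4 months. Its WT library of 2 months stood above the other 3, which lay between 30.1 and 31.4 FPKM.

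Ctnnd1, p120-catenin, which holds cadherins at the membrane, measured 17.1 and 17.8 FPKM in N101D and WT at 2 months and 15.3 and 14.1 at 4 months. The genotypes changed places between the ages with differences of -0.06 and 0.11. The first became 0.03 with quantile normalization and -0.5 with equal totals without the crystallins. Per transcript length, Ctnnb1 stood 3.46-fold to 4.47-fold above Ctnna1 and 7.11-fold to 8.43-fold above Ctnnd1 in the same library. Relatives of both catenins were more abundant than the members themselves, a comparison made after the values were seen. Ctnna2, the alpha-N-catenin known from neurons, stood at 1.14-fold to 1.47-fold the level of Ctnna1, and Arvcf, a p120 relative, at 7.54-fold to 11.4-fold the level of Ctnnd1 (134 to 171 FPKM).

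Cadm1, a nectin-like adhesion molecule, measured 79.2 and 84.4 FPKM in N101D and WT at 2 months and 65.9 and 70.3 at 4 months. The genotype difference was -0.09 at both ages, and that of 4 months became 0.02 with quantile normalization. With equal totals without the crystallins the differences were -0.56 at 2 months and -0.11 at 4 months. Both libraries of 2 months were above both of 4 months.

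The integrins form a laminin receptor, with Itga6 as the alpha chain and Itgb1 as the beta chain that many alpha chains share. Itga6 measured 40.0 and 38.4 FPKM in N101D and WT at 2 months and 33.9 and 38.8 at 4 months. It varied least of all members, and only the N101D library of 4 months stood lower. Itgb1 measured 62.7 and 52.6 FPKM in N101D and WT at 2 months and 34.5 and 43.1 at 4 months. Both libraries of 2 months lay above both of 4 months, and the order of the genotypes turned, from 1.19 times the WT level (1.15 to 1.23) to 0.800 times (0.772 to 0.830). With equal totals without the crystallins the difference of 2 months was -0.22 in place of 0.25, so its direction rests on the scaling. The median of all genes at 2 months was then -0.46 in place of -0.09, so Itgb1 lay above it under both. The ratio of Itgb1 to Itga6 ran from 1.02 in the N101D library of 4 months to 1.57 in that of 2 months.

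Cldn1 was the member with the largest genotype difference. This claudin, a strand protein of tight junctions known from epithelia, measured 0.336 FPKM in N101D against 5.01 in WT at 2 months, and 4.39 and 3.74 at 4 months. The N101D library of 2 months was far below the other 3. Its value rests on about 25 reads, against about 764 in WT (95% intervals 0.218 to 0.496 and 4.67 to 5.38 FPKM). The N101D level was 0.0671 of the WT level (0.0429 to 0.0994), a log2(FPKM + 1) difference of -2.17, and at 4 months it was 1.17 times the WT level (1.04 to 1.33), a difference of 0.19. In bulk lens RNA, fewer cells of a type and less RNA per cell cannot be told apart. The authors' tables give Cldn1 the status NOTEST at both ages, and the locus is XLOC_014873, chr16:26356731-26371925 on mm9 as listed.

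The low Cldn1 value came in the same library as the low pigmented tissue markers. Dct, a melanin enzyme gene, measured 3.17 FPKM there, against 138 in WT of 2 months, 95.0 in N101D of 4 months and 84.2 in WT of 4 months. Macrophage markers summed to 0.657 FPKM in that library and 5.22 to 7.17 in the others, endothelial markers to 1.28 and 6.34 to 8.02, and stromal markers to 2.70 and 10.2 to 22.3, with 1 stromal gene at 0. In each of these 3 lists 6 of 6 genes were lower in N101D than in WT at 2 months, as were 7250 of all 11264 genes. The difference reached 2-fold in 3 macrophage, 1 endothelial and 3 stromal markers. The part of any of these tissues in the Cldn1 difference was not tested. Among 10623 other genes, 2 of the 3 with the pattern over the 4 libraries most like that of Cldn1, by root mean square distance of centred log2(FPKM + 1), were Slc6a9 (0.054) and B2m (0.054). Slc6a9, a glycine transporter gene, measured 2.27 FPKM in the N101D library of 2 months and 10.1 to 14.3 in the other 3.

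Cgn, which encodes cingulin, a protein on the cytoplasmic face of tight junctions, measured 4.08 FPKM in N101D against 8.71 in WT at 2 months, and 9.86 and 2.14 at 4 months. The order of the genotypes turned with age: WT was the higher at 2 months and N101D at 4 months, and no other member differed as much at 4 months. The N101D level was 0.468 of the WT level at 2 months (0.423 to 0.517) and 4.62 times it at 4 months (4.13 to 5.17), with log2(FPKM + 1) differences of -0.94 and 1.79. In the WT library of 4 months, where Cgn was lowest, 6 markers of retinal neurons summed to 626 FPKM against 349 to 390 in the other libraries, and 5 blood markers to 45.6 against 122 to 349, and their part in the Cgn values was not tested. The values of Cgn rest on about 479 and 2088 reads at 2 months and 2517 and 359 at 4 months. The locus, XLOC_025300, is listed with a span of chr3:94416680-94748680 on mm9 that holds 7 named symbols, Cgn included, so reads of neighbouring genes may have been divided between loci by the authors' estimation.

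The level of WT at 4 months was the lowest of the 4 in Cgn and not in the related gene Cgnl1, or paracingulin. Cgnl1 was lowest in N101D at 2 months (5.41 FPKM), measured 9.85 FPKM in N101D against 7.44 in WT at 4 months, and differed between the genotypes by -0.90 at 2 months and 0.36 at 4 months. The ratio of Cgnl1 to Cgn was 1.33, 1.26 and 0.999 in the other libraries and 3.48 in that one. Tjp1, the scaffold ZO-1, stayed between 21.6 and 24.1 FPKM. The genes most like Cgn were further from it than those of Cldn1: a locus named for Gm10046, Zfp59 and Zfp607 (0.244), Cgref1 (0.288) and Syce2 (0.346), a meiosis gene that measured 0.941 FPKM in the WT library of 4 months and 4.04 to 4.78 elsewhere.

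**Figure D2:**
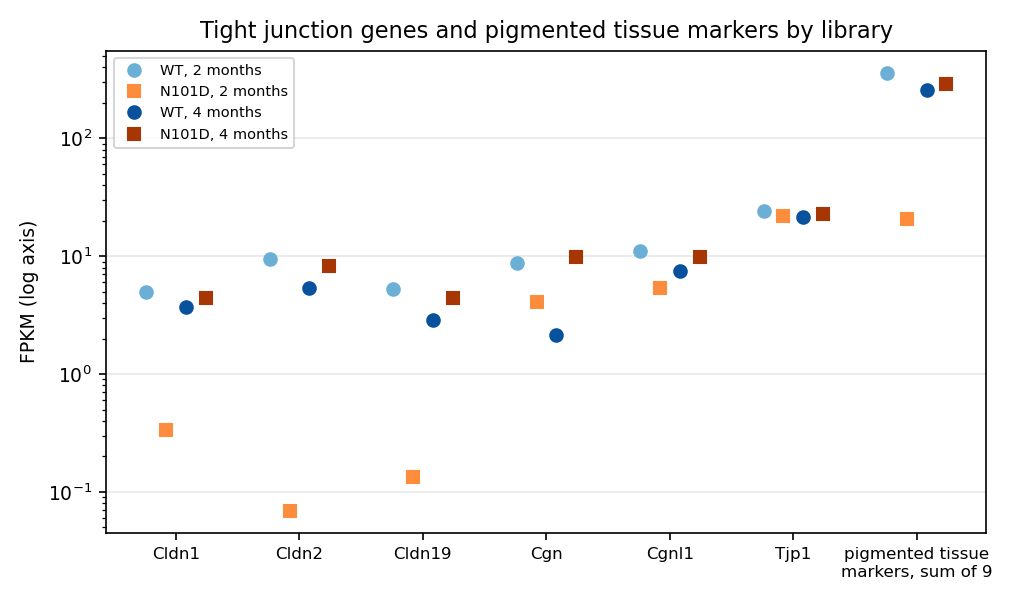
FPKM of tight junction genes, and the summed FPKM of 9 pigmented tissue markers, in the 4 libraries on a log axis, 1 point per library with no error bar. Cldn1, Cldn2 and Cldn19 drop in the N101D library of 2 months only (0.336, 0.069 and 0.135 FPKM), Cgn is lowest in WT at 4 months (2.14 FPKM), and Tjp1 stays between 21.6 and 24.1 FPKM.

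A member was counted as different at a log2(FPKM + 1) difference of 1 or more, on which genes of low level show less than their true fold. Between genotypes at 2 months this took 1 of 10 members, Cldn1, lower in N101D, against 4.02% of all genes, most of which were also lower (3.62% lower, 0.4% higher). At 4 months it took 1 of 10, Cgn, higher in N101D, against 0.613% of all genes (0.337% higher, 0.275% lower). The members' median difference was -0.06 at 2 months, where that of all genes was -0.09, and -0.07 at 4 months, where that of all genes was 0.03. For 8 of 10 members the sign of the difference was opposite at the 2 ages, and the same held for 62.9% of all genes. With equal totals without the crystallins this was 4 of 10, against 52.6%. In 2 of the 10, Cldn1 and Cgn, the difference was also 2-fold at 1 of the ages, which was so for 3.56% of all genes.

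**Figure D3:**
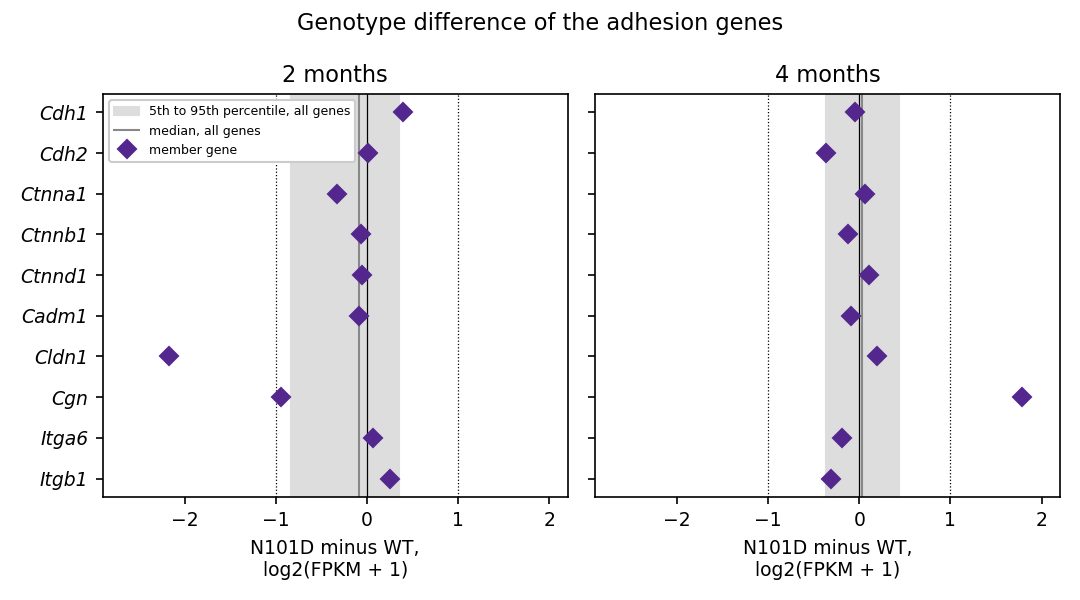
Differences between N101D and WT in log2(FPKM + 1) for each member at 2 months (left) and 4 months (right), with the grey band from the 5th to the 95th percentile of all 11264 genes and dotted lines at 2-fold. Cldn1 (-2.17), Cgn (-0.94) and Cdh1 (0.39) lie outside the band at 2 months, and Cgn (1.79) and Cdh2 (-0.37) at 4 months.

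The additive limma fit over genotype and age, in which the 2 ages serve as each other's replicates, had 1 residual degree of freedom. After Benjamini-Hochberg adjustment limma called 0 genes for genotype, with 118 (1.05%) at an unadjusted p under 0.05, and no member was among them. The genotype effect was -0.99 ± 0.57 (SE) for Cldn1 and 0.43 ± 0.65 for Cgn, both with an adjusted p of 1 in limma. A gene whose genotype difference turns with age, as in these 2, can hardly pass such a fit. A fit without the N101D library of 4 months, with genotype as the only term, sets the N101D library of 2 months against both WT libraries. Cldn1 differed there by -2.0. That lone N101D library also stood apart in Xist, Y-linked genes and pigmented tissue markers. Genotype cannot be told apart from sex or tissue content in this fit, which assumes that the lone library varies like the WT libraries. How many animals a library stands for is not given in the labels, and no 2 libraries share a group. The p-values of the additive fit therefore measure no spread between replicates. Their error term mixes any change of the genotype difference with age and any technical difference between libraries.

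With age, most members were lower. In WT 9 of 10 members were lower at 4 than at 2 months, against 51.6% of all genes, and in N101D 7 of 10, against 35.3%. The members' medians were -0.33 and -0.25, where those of all genes were -0.01 and 0.15. In N101D this rests on the scaling: with equal totals without the crystallins 3 of 10 members were lower there, against 9.54% of all genes, with a median of 0.22 where that of all genes was 0.51. The 6 members lower in both genotypes were Cdh1, Cdh2, Ctnnb1, Ctnnd1, Cadm1 and Itgb1, and in each of them both libraries of 4 months lay below both of 2 months. Of all genes, 22.4% were lower in both genotypes. The difference reached 2-fold in 1 of 10 members in WT (Cgn, -1.63), against 1.15% of all genes (0.675% higher, 0.479% lower). In N101D it did so in 2 of 10 (Cldn1, 2.01, and Cgn, 1.10), against 6.31% of all genes (5.21% higher, 1.1% lower), and both were higher at 4 months. These comparisons reuse the libraries of the genotype comparison, and the level of Cldn1 at 2 months enters both. Within N101D, age cannot be told apart from sex or from the amount of pigmented tissue.

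Of this group of 6, both cadherins and Itgb1 had the age effects furthest from 0 in the limma fit, and in N101D, though not in WT, all 3 differed more with age than the others. Cdh1 was lower at 4 months by a log2 difference of -0.40 in WT and -0.83 in N101D, Cdh2 by -0.36 and -0.74, and Itgb1 by -0.28 and -0.85. In each, the N101D pair differed more than the WT pair, which was not tested. With equal totals without the crystallins this did not hold for Cdh2 (-0.33 in WT, -0.28 in N101D). Cdh1 was then nearly the same in both pairs (-0.37 in WT, -0.39 in N101D), and Itgb1 was -0.26 and -0.37. The N101D pair also differed in Y-linked genes and pigmented tissue markers, and their part was not tested. In the limma fit the age effect was -0.61 ± 0.18 (SE) for Cdh1, -0.55 ± 0.17 for Cdh2 and -0.56 ± 0.20 for Itgb1, with unadjusted p of 0.0206, 0.0258 and 0.0376 and Benjamini-Hochberg adjusted p of 0.464, 0.480 and 0.503. These 3 of 10 members had an unadjusted p under 0.05, against 9.54% of all genes, and limma called 0 genes for age after adjustment (1075 unadjusted). With equal totals without the crystallins these 3 were still lower in both genotypes (in N101D by -0.39, -0.28 and -0.37), whereas Ctnnb1, Ctnnd1 and Cadm1 were then higher at 4 months in N101D (0.12, 0.30 and 0.21). Crystallins took 67.0% and 71.4% of the summed FPKM in N101D and WT at 2 months and 55.2% and 59.8% at 4 months. Markers of lens epithelium, a list that holds Cdh1, summed to 140 and 218 FPKM in N101D and WT at 2 months and 179 and 158 at 4 months. In WT every gene of the list was lower at 4 months. In N101D Foxe3 and Cdh1 were lower, and Pdpn, Pax6 and Gja1 higher. The part of these markers in the age values was not tested.

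Around these members, 127 symbols of other adhesion genes were followed in 11 roles, of which 82 could be analysed. At 2 months 7 of the 82 (8.54%) were 2-fold lower in N101D and 0 were higher, against 3.62% and 0.4% of all genes, and at 4 months 0 were different, against 0.613%. The median was -0.17 at 2 months and 0.08 at 4 months, where those of all genes were -0.09 and 0.03. At 4 months all 7, which were picked for their low values at 2 months, stood above WT, by 0.05 to 0.55. So did 59 of the 82, and 6228 of all 11264 genes.

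Of 13 tight junction genes, 2 were 2-fold lower at 2 months, as were 3.62% of all genes. Cldn2, a pore-forming claudin whose gene lies on the X chromosome, measured 0.069 FPKM in N101D and 9.45 in WT (-3.29), and 8.26 and 5.33 at 4 months. Cldn19, a claudin whose loss in humans affects the kidney and the eye, measured 0.135 and 5.25 FPKM (-2.46), and 4.39 and 2.87 at 4 months. With Cldn1, these claudins were thus low in 1 library, the one with few pigmented tissue markers, and the part of that tissue was not tested. Not all claudins were low there. Cldn10 (3.33 against 2.18 FPKM in WT) and Cldn12 (8.85 against 8.07) were higher in N101D at 2 months, and Cldn5 (0.0612 against 1.0) was lower.

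The counts of the other roles stand beside the same 3.62%. Of 10 further catenins and junction adaptors, 2 were lower at 2 months: Plekha7, an adaptor that binds p120-catenin (1.85 against 6.28 FPKM, -1.35), and Pkp4, an armadillo protein of junctions (16.8 against 37.8 FPKM, -1.12). Of 3 further classical cadherins, Cdh11, known from mesenchyme, was lower (0.246 against 1.92 FPKM, -1.23). Of 7 integrin alpha chains, Itga7, known from muscle, was lower (0.334 against 1.73 FPKM, -1.03), and of 20 integrin adaptors and partners, Tns1, a tensin (2.83 against 7.70 FPKM, -1.18).

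The remaining 6 roles had 0 genes at 2-fold at either age. Among 5 nectins, Pvrl3 measured 24.1 and 31.7 FPKM in N101D and WT at 2 months and 22.4 and 22.2 at 4 months. The most abundant of 5 desmosome genes were Ppl, periplakin, with a mean of 14.1 FPKM, and Pkp2, with 10.5. Among 9 immunoglobulin adhesion molecules Bsg, basigin, averaged 229 FPKM and Nrcam 81.9, and among 3 integrin beta chains Itgb5 averaged 60.7. The 2 repressors of cadherin genes that could be analysed were Zeb1, with 4.08 and 5.30 FPKM in N101D and WT at 2 months and 4.15 and 3.97 at 4 months, and Zeb2, with a mean of 5.83. Of 5 linkers between membrane and cytoskeleton, Ezr, ezrin, averaged 55.7 FPKM and the fiber protein gene Ahnak 20.1.

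**Figure D4:**
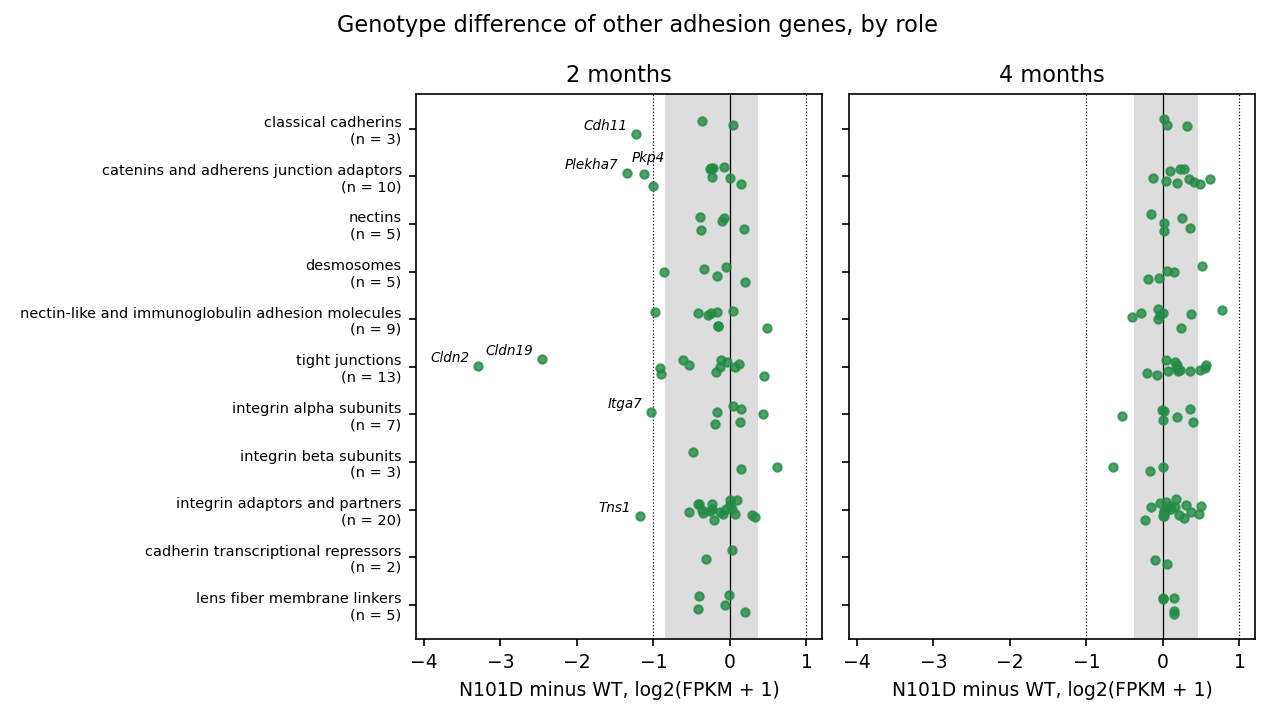
Differences between N101D and WT in log2(FPKM + 1) for 82 further adhesion genes in 11 roles at 2 months (left) and 4 months (right), 1 point per gene, with the grey band from the 5th to the 95th percentile of all genes and dotted lines at 2-fold. The 7 named genes are 2-fold lower at 2 months, led by Cldn2 (-3.29) and Cldn19 (-2.46), and none is past 2-fold at 4 months.

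Further loci lie in the spans of both cadherins. XLOC_038819 carries the symbol Cdh1 with the same span but stands among loci of the minus strand, whereas Cdh1 lies on the plus strand. It measured 5.35 FPKM in N101D against 2.95 in WT at 2 months and 5.24 and 2.91 at 4 months, 1.81 and 1.80 times the WT level, so the 2 libraries of a genotype were close at both ages. Within the span of Cdh2, XLOC_018933, which has no symbol, measured 5.60 and 5.01 FPKM at 2 months and 33.5 and 14.4 at 4 months. It was high at 4 months, and there 2.33 times as high in N101D as in WT, where Cdh2 itself was lower. No label states that the libraries kept strand, and reads of these loci and of the cadherins cannot be told apart with certainty. XLOC_018933 belongs to a further group of loci, listed apart from the plus-strand and minus-strand groups. Of its named loci whose gene has a known strand, 88.3% were of plus-strand genes, whereas Cdh2 stands among loci of the minus strand. The medians of that group were 0.153, 0.241, 0.520 and 0.249 FPKM in N101D and WT at 2 months and N101D and WT at 4 months. The part of that shift in the value was not tested.

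**Figure D5:**
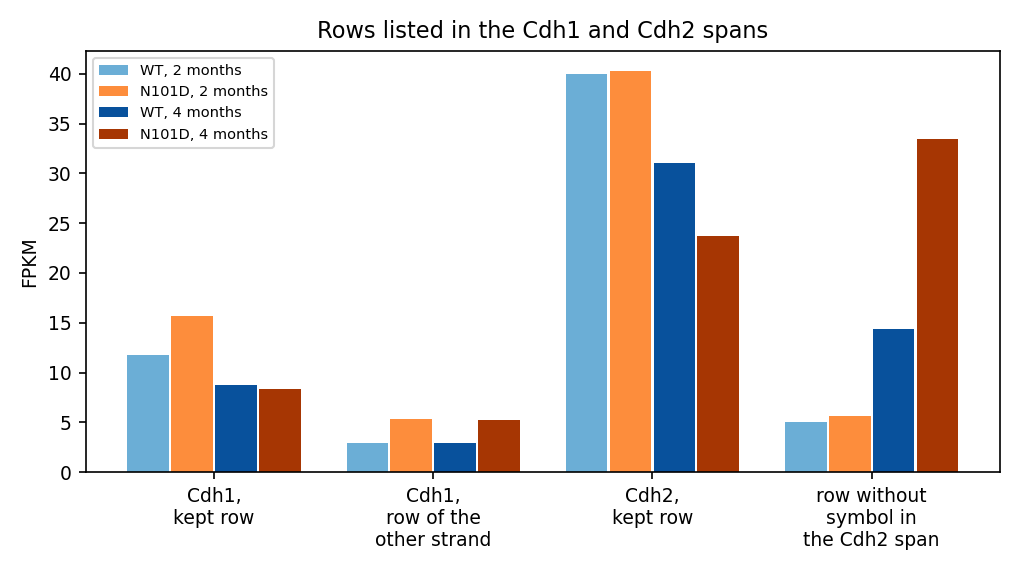
FPKM of the kept Cdh1 and Cdh2 loci and of 1 further locus in the span of each, 1 bar per library with no error bar. The second Cdh1 locus (XLOC_038819) is near 5 FPKM in both N101D libraries and near 3 in both WT libraries, and XLOC_018933 in the Cdh2 span reaches 33.5 FPKM in N101D at 4 months.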

How the data were processed

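The values are FPKM per gene locus, as deposited by the authors in 1 table per library of 44597 loci. Cuffdiff, Cufflinks 1.0.3, TopHat 1.2.0, CASAVA 1 and the build mm9 are listed in the submitters' processing notes. The sources used here do not state the annotation. RNA came from Trizol extraction and TruSeq libraries, per the labels' protocols. The members and lists were chosen with earlier results of these data known.

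Loci of status FAIL (289 at 2 months, 488 at 4 months) were missing. For each symbol the stranded locus of highest mean FPKM was kept, and 11264 genes with 1 FPKM or more in at least 1 library and a value in all 4 were analysed. For 2788 loci the status was not the same at both ages. Levels of different ages may therefore come from estimations made apart. Differences are of log2(FPKM + 1), with no further scaling. Starts are printed as listed, and the sources used here do not state if they count from 0 or 1.

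Depth was recovered from the steps between low values, taken as whole reads: per library, 92.2% to 97.0% of values lay no more than 0.05 reads from a whole number. Intervals (95%, Poisson, conditional binomial for ratios) use approximate read numbers and cover counting error only. The 1 model fit was limma 3.58.1 in R 4.3.3, with genotype and age as additive terms. It used a prior following mean expression (3.73 prior degrees of freedom) and Benjamini-Hochberg adjustment. The fit was tried on simulated data with the same spread for all genes and genotype effects equal at both ages. Such data do not cover genotype differences that turn with age, as in Cldn1 and Cgn. All members are named. Other adhesion genes are named where they were 2-fold different by genotype at either age, or, in a role with none, for high mean FPKM. Ctnna2, Arvcf, Cgnl1, Tjp1, Cldn5, Cldn10 and Cldn12 are also named and were chosen after their values were seen. For Cldn1 and Cgn the 3 genes of most similar pattern were sought, and 1 of them is not reported here. Sequences are from RefSeq on GRCm38.p6 and no coordinate was carried between builds. Alternatives changed the scaling, pseudocount, filter, locus choice, locus status, terms, prior and libraries.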

Additional observations from a re-analysis of the deposited data

Results flagged for a closer look

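Cldn1 stood out because its genotype difference pointed opposite ways at the 2 ages, with log2(FPKM + 1) differences of -2.17 at 2 months and 0.19 at 4 months. Cgn did so too, with -0.94 at 2 months and 1.79 at 4 months. With 1 library per group this dependence on age was not tested, and opposite signs with 2-fold at 1 or both ages were found in 3.56% of all genes.

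Loci outside the comparisons also stood above the control library. XLOC_018933, without a symbol in the span of Cdh2, measured 33.5 FPKM in N101D at 4 months against 14.4 in WT. XLOC_038819, which carries the symbol Cdh1 among loci of the other strand, measured 5.35 FPKM in N101D at 2 months against 2.95 in WT, and 5.24 at 4 months against 2.91.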

How the results depend on the processing

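No paired analysis was possible because the labels give no replicate numbers and each group has 1 library. The count of members 2-fold different by genotype at 2 months, 1 as reported, was 2 with equal totals without the crystallins and 2 with a pseudocount of 0.1, since Cgn then passed (-1.32 and -1.08), and 0 with loci of status OK only, which leave Cldn1 out. By age in N101D it was 2 as reported and 1 with quantile normalization (Cgn at 0.93) and 1 with status OK. The count of members lower at 4 months in both genotypes, a count added after seeing the data, was 6 as reported and 3 with equal totals, where 6.49% of all genes were lower in both. With quantile normalization the count was 8, against 32.8% of all genes. Equal totals moved the median of all genes at 2 months to -0.46 and that of the members to -0.52, a difference of -0.06 between them. Of 316 member differences, 3 changed their side of 2-fold and 313 did not. Many of them could not change. The filters, the status choice and the highest locus of any strand group left the values of the members they kept as they were. So did summed loci for members with 1 locus.

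Among the other adhesion genes, the 7 different at 2 months became 14 with a pseudocount of 0.1, 11 with loci summed and 4 with status OK, while the share of all genes went from 4.02% to 7.81%, 4.25% and 3.64%. The count was 10 with equal totals without the crystallins (6.86% of all genes) and 10 with the highest locus of any strand group (4.26%). With quantile normalization (3.02%) and with the filter at 5 FPKM (3.84%) it was 5. The 0 at 4 months became 2, 1 and, with the highest locus of any strand group (added after seeing the data), 1, for the pseudocount, the sum and that choice, with 1.68%, 1.02% and 0.9% of all genes in place of 0.613%. In the limma fit, genes called for genotype went from 0 to 61 with equal totals, where the prior became infinite. With 1 library left out and genotype as the only term (added after seeing the data) it called between 0 and 280 genes, 280 of them without the N101D library of 4 months, Cldn1 among them (adjusted p 0.00647). Genes called for age went from 0 to 157 with equal totals and to 1 each with quantile normalization, summed loci, the highest locus of any strand group and 1 term. Across the alternatives that kept all 4 libraries the members' adjusted p from limma stayed between 0.72 and 1.0 for genotype and between 0.23 and 1.0 for age. Except where named, the cause was not tested. Depth limits Cldn1 most, with about 25 reads in its lowest library.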
